A study of Sus scrofa with 32 samples.

Results

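The comparison described here sets the loin muscle of the 3-breed cross Duroc x Landrace x Dapulian (DLDPL) against that of the Dapulian (DPL), across every gene with enough reads. It uses 16 of the 32 libraries of the series, 8 per group, chosen by the breed in their labels and by no measured value. Per the labels, 32 pigs, 8 per breed group, were sampled at an age of 6 months, all are labelled wild type, and their housing and feed were alike. The other 16 libraries are 8 of Landrace (L) and 8 of Landrace x Dapulian (LDPL). They share the estimate of the spread between libraries, and LDPL serves as a second cross to compare with. All of the muscle is longissimus dorsi, the back muscle that runs along the spine and is sold as pork loin. The DLDPL pigs carry Dapulian ancestry themselves, so the contrast is between a breed and a cross that descends from it. The labels give no sex, litter, sire, slaughter day or batch for either group, and differences in any of these and the breed cannot be told apart. The theme stated in the series title is the regulation of myogenesis, the making of muscle fibres, and of adipogenesis, the making of fat cells.

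As background, the pig loin is built mostly of fast, glycolytic fibres, which break down glycogen and glucose to lactate. A smaller share of slow fibres relies on mitochondria, which burn fatty acids and pyruvate through the tricarboxylic acid (TCA) cycle and the respiratory chain. Between the fibres lies connective tissue made by fibroblasts, with collagens that bear on how tender the meat is, and fat cells that form the marbling. Landrace is a lean commercial breed, Duroc is used as a sire breed and known for marbling, and Dapulian is an indigenous Chinese breed. The RNA of bulk muscle mixes all of these cells, and fewer cells of a type and less RNA per cell cannot be told apart in it.

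Total depth was 24972962 ± 2268551 uniquely mapped reads per library in DLDPL and 26184718 ± 3068135 in DPL (SD, n = 8; two-sided exact permutation test, p = 0.375, adjusted over 3 library measures 0.375). The 13 protein genes of the mitochondrial genome took 22.7 ± 4.86% of the reads in DLDPL, with a range from 14.8 to 29.7%. In DPL they took 31.3 ± 5.59%, from 22.2 to 37.3%. The groups overlapped, but few reassignments of libraries to groups gave a difference of means as large (exact permutation test, n = 8 per group, p = 0.0073, adjusted 0.0219). Coverage, the percent of a gene's length with reads, had a median over long genes of 94.8 ± 0.623% in DLDPL and 94.1 ± 1.03% in DPL (SD, n = 8; exact permutation p = 0.109, adjusted 0.164), with the 3 lowest values in DPL replicates 16, 21 and 23. On the first principal component of the 16 libraries, which holds 15.9% of the variance, 7 DLDPL libraries lay on the negative side and all 8 DPL libraries on the positive side. DLDPL replicate 32 lay on the positive side, beside DPL replicates 26 and 16. The labelled tissue showed in the fibre genes: the summed level of 12 fast fibre genes was 57566 to 88180.2 CPM (median 73911) in DLDPL and 50881 to 73289 CPM (median 57545) in DPL. CPM is a gene's count scaled to the size of its library, which was adjusted by the TMM method.

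**Figure D1:**
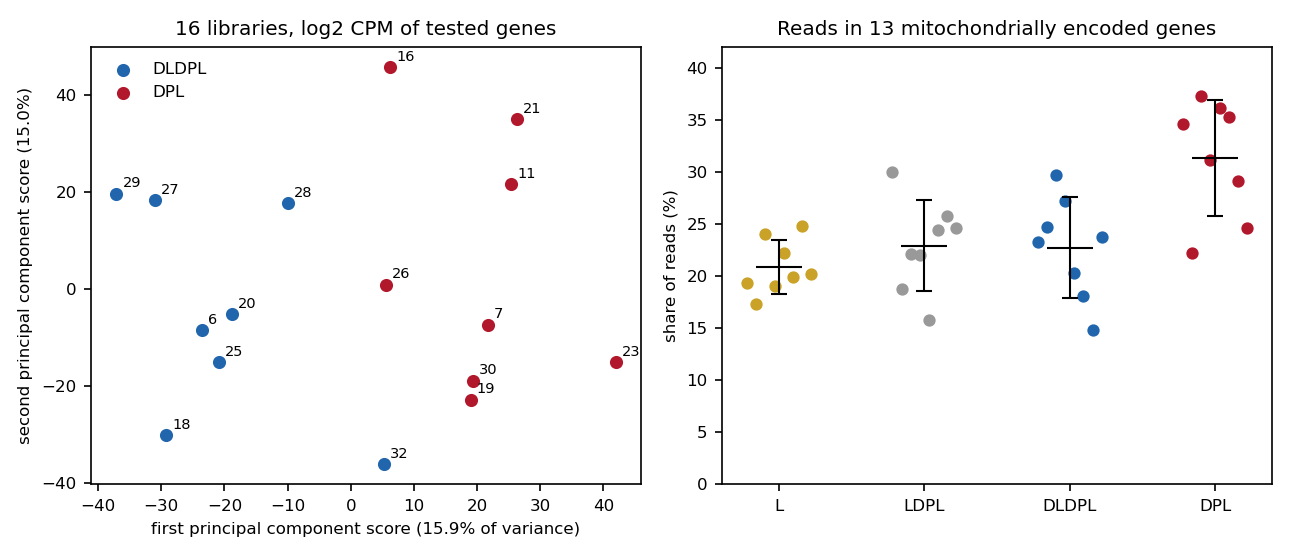
Left, scores of the 16 libraries on the first and second principal components of log2 CPM, each point a library labelled with its replicate number. Right, percent of reads in the 13 mitochondrially encoded genes in each library of the 4 groups, with mean and SD (n = 8); the DPL mean of 31.3% is above that of each other group.

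Genes that were higher in the muscle of the 3-breed cross included 6 matrix genes, with collagen chains COL3A1, COL1A2 and COL15A1 among them, the fast fibre gene PVALB and the glycolytic enzyme LDHA. Genes that were lower included the pyruvate carrier subunit MPC2, 7 nuclear genes of the respiratory chain and 5 chaperones. Of 12821 genes tested, 526 were called at an adjusted p under 0.05 (4.1%). Of these, 254 were higher in DLDPL (1.98%) and 272 lower (2.12%), and 98 of the higher and 48 of the lower ones differed at least 2-fold. Each count of called list members below stands against these shares. The median size of the change among called genes was 0.71 on the log2 scale. Unless another tool stands beside it, each adjusted p below comes from edgeR's quasi-likelihood test with Benjamini-Hochberg adjustment over all tested genes. Each error of a log2 change is a standard error derived from that test. It is the size of the change divided by the square root of the test's F statistic, so it holds no information beyond the change and its p-value. In 50 genes (0.39%) the 8 DLDPL and the 8 DPL libraries did not overlap, 30 higher and 20 lower in DLDPL.

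The balance of rises and falls depended on the scale. Limma on log2(RPKM + 1), where RPKM scales reads by gene length and by all reads of the library, called 451 genes, 402 higher and 49 lower, so that 89.1% of the calls were higher in DLDPL against 48.3% in the count model. On that scale the median change of all genes was 0.09 rather than 0.00. RPKM divides by all reads, the mitochondrial ones included. With the share of mitochondrial reads as a covariate in the count model, 107 genes were called, 65 higher and 42 lower, of which 91 were among the 526. Leaving out the 3 DPL libraries of lowest coverage gave 317 calls, 165 higher and 152 lower. Which part of the contrast belongs to the mitochondrial share and which to breed was not tested beyond these fits, since the share itself differs between the groups.

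Connective tissue genes were among the rises. Of 28 tested fibroblast and matrix genes, 6 rose and 0 fell, against 1.98% and 2.12% of all genes, and the median log2 change of the list was 0.41 beside 0.00 for all genes. COL3A1 (ENSSSCG00000016034), a chain of the collagen found beside the main fibril collagen in soft tissue, spanned 377 to 1179.8 CPM (median 651) in DLDPL and 52.7 to 419.7 CPM (median 218) in DPL. Of the DLDPL libraries, 7 lay above every DPL library. The rise was 3.08-fold (log2 change 1.62 ± 0.29, adjusted p = 0.00153). COL1A2 (ENSSSCG00000015326), a chain of the main fibril collagen, spanned 134 to 291 CPM (median 211) in DLDPL and 27.0 to 185 CPM (median 89.1) in DPL. All 8 DLDPL values were above the DPL median, though DPL replicate 16 reached into their range. Its log2 change was 1.25 ± 0.26 (adjusted p = 0.00448).

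COL15A1 (ENSSSCG00000005380), a collagen of the basement membrane zone around fibres and vessels, did not overlap between the groups. It ran from 8.64 to 19.0 CPM in DLDPL and from 3.60 to 7.80 CPM in DPL, a 2.25-fold rise (log2 change 1.17 ± 0.18, adjusted p = 0.000304). COL5A1 and COL5A2, chains of a collagen that starts fibril assembly, rose by 1.03 and 0.90 on the log2 scale (adjusted p = 0.00948 and 0.0119). SPARC, a matrix protein that binds collagen, rose by 0.78 (adjusted p = 0.0268). The other members stayed below the threshold, with FN1 (fibronectin) at a log2 change of 0.27, COL6A1 at 0.26 and DCN (decorin) at 0.13. Of all 28 members, 24 had a positive and 4 a negative change, the lowest at -0.53. DPL replicate 19 had the lowest value of COL3A1, COL1A2, COL15A1 and COL5A1. Leaving out 1 library at a time gave 5 to 8 rises in the list, and leaving out the 3 DPL libraries of lowest coverage gave 6. With the mitochondrial share as a covariate COL15A1 remained called (log2 change 1.0, adjusted p = 0.0297) and the other 5 did not. For COL3A1 that fit gave 1.38 and an adjusted p of 0.0592.

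CCDC80 (ENSSSCG00000011928), a secreted protein of the matrix, is on none of the lists. It was named for the size of its rise, which is among the top 12 once genes below 5 RPKM in both groups or lacking a symbol are set aside. It spanned 67.5 to 110.5 CPM (median 95.8) in DLDPL and 17.7 to 51.6 CPM (median 42.6) in DPL, with no overlap, and rose 2.35-fold (log2 change 1.23 ± 0.19, adjusted p = 0.000276). Of the other cell types around the fibre, smooth muscle and pericyte markers had 1 rise among 11 tested. It was CNN1, a calponin of contractile smooth muscle, with 26.2 to 55.3 CPM in DLDPL against 9.11 to 27.0 in DPL and a log2 change of 1.01 ± 0.20 (adjusted p = 0.00321). The summed level of that whole list was 4191 to 7466 CPM (median 6405) in DLDPL and 6010.5 to 11349.9 CPM (median 6911) in DPL, so the groups overlapped. The list's median log2 change was 0.23, the other way from the medians of the sum. Of the 11, 7 had a positive and 4 a negative change. DES, desmin, is on the list and was not called, with log2 changes from -0.41 to -0.20 over the alternative fits. Bulk RNA mixes all cells, muscle fibres included, so the sum is no measure of the number of smooth muscle cells or pericytes. The part of each gene in the sum was not tested. By edgeR's test 0 of 10 endothelial, 9 macrophage, 7 lymphocyte, 5 nerve and Schwann cell, 8 satellite cell and 3 blood cell markers were called, with medians of -0.08, -0.19, -0.23, 0.71, 0.16 and 1.11 on the log2 scale. At an unadjusted p under 0.05 the counts were 1, 0, 0, 2, 3 and 1. DESeq2 called 1 satellite cell marker lower and 0 of the others, and limma called 0 of them. Blood markers summed to 29.1 to 524 CPM (median 102) in DLDPL and 31.6 to 142 CPM (median 77.1) in DPL.

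**Figure D2:**
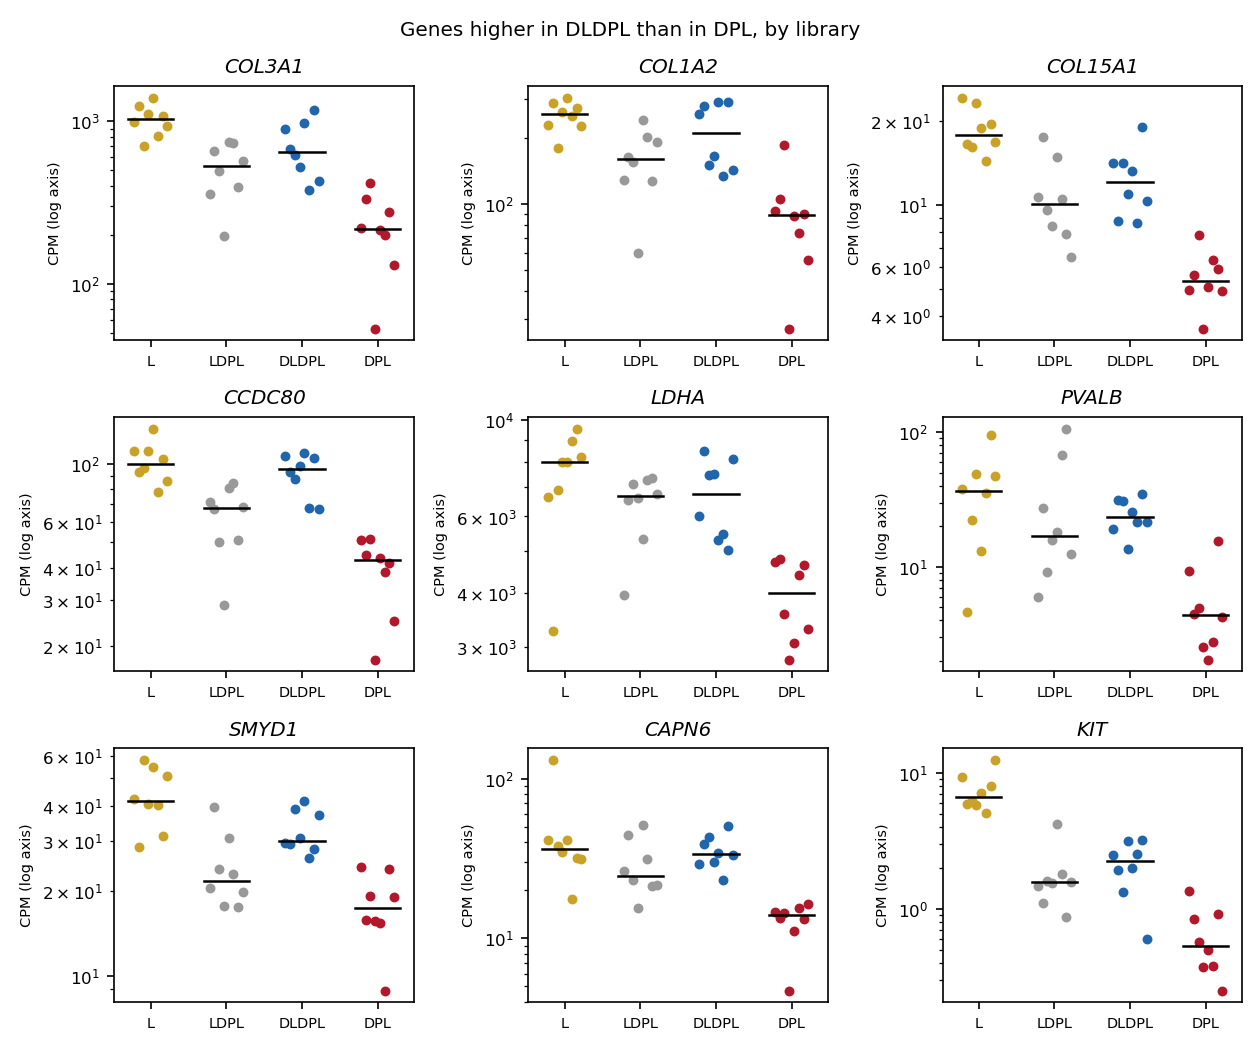
Level in each library, in CPM on a log axis, of 9 genes higher in DLDPL than in DPL, for all 4 groups; bars are medians of 8 libraries. COL15A1, CCDC80, LDHA, SMYD1 and CAPN6 do not overlap between DLDPL and DPL, whereas 1 or more DPL libraries reach into the DLDPL range for COL3A1, COL1A2, PVALB and KIT.

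Fibre genes moved in both directions. Of 21 listed fast fibre genes 12 were tested. No gene matched the symbols of the others, the myosin heavy chains MYH1, MYH2 and MYH4 among them. Of the 12, 2 rose and 0 fell, against 1.98% and 2.12% of all genes (median log2 change 0.15). The count of rises was 1 without any 1 of DLDPL replicates 6, 18, 20, 25 and 32 or DPL replicates 7, 19, 21, 26 and 30, and 0 without the 3 DPL libraries of lowest coverage. It was 1 with the mitochondrial share as a covariate. Limma on log2(RPKM + 1) called 6 higher, on a scale where the median change of all genes was 0.09. PVALB (ENSSSCG00000000138), parvalbumin, which takes up calcium and speeds relaxation in fast fibres, spanned 13.5 to 34.5 CPM (median 23.4) in DLDPL and 2.04 to 15.5 CPM (median 4.37) in DPL. Only DPL replicate 26 reached the DLDPL range. The rise was 4.27-fold (log2 change 2.10 ± 0.52, adjusted p = 0.0194), and without the 3 DPL libraries of lowest coverage the log2 change was 1.76 (adjusted p = 0.114). MYL1, an alkali light chain of fast myosin, had medians of 19592 and 12795 CPM and rose by 0.50 (adjusted p = 0.0386). The remaining fast genes stayed below the threshold, with TPM1 at 0.44 and CASQ1 at 0.36.

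Of 21 listed slow fibre genes 10 were tested, and no gene matched the symbols of the others, MYH7 and MYL2 among them. Of the 10, 1 rose and 2 fell, against 1.98% and 2.12% of all genes, with a median of -0.36. The median was -0.18 without DPL replicate 23, -0.53 without DLDPL replicate 6 and -0.13 without the 3 DPL libraries of lowest coverage, where 0 fell. It was -0.08 with the mitochondrial share as a covariate, where 0 rose and 0 fell. Without DPL replicate 11 or 23 or DLDPL replicate 18, 1 gene fell. The 2 that fell are genes of the stretch response at the Z-disc as much as of slow fibres. CSRP3 (ENSSSCG00000013354), muscle LIM protein, spanned 101 to 590.1 CPM (median 361) in DLDPL and 450.3 to 1592 CPM (median 715) in DPL, and 7 of 8 DLDPL libraries lay below every DPL library. Its log2 change was -1.39 ± 0.36, 2.62-fold lower (adjusted p = 0.0217). ANKRD2 (ENSSSCG00000010522), an ankyrin repeat protein that binds titin, spanned 47.2 to 191 CPM (median 113) in DLDPL and 125 to 486 CPM (median 292) in DPL (log2 change -1.38 ± 0.36, adjusted p = 0.0225). All 8 DLDPL libraries were below the DPL median for both genes. Without the 3 DPL libraries of lowest coverage their log2 changes were -1.31 and -1.37 (adjusted p = 0.0603 and 0.0586). MYL3, the slow myosin light chain, was at -0.50 (adjusted p = 0.395).

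SMYD1 (ENSSSCG00000008215), a methyltransferase needed for the assembly of myosin filaments in heart and skeletal muscle, is on the slow list but rose. It spanned 26.1 to 41.6 CPM (median 30.1) in DLDPL and 8.88 to 24.3 CPM (median 17.4) in DPL with no overlap (log2 change 0.88 ± 0.18, adjusted p = 0.00427). Among 11 genes of immature or regenerating fibres, MYMK alone was called. Of the 11, 7 had a positive and 4 a negative change, from -1.35 to 1.38, with a median of 0.18. MYMK encodes myomaker, the membrane protein through which myoblasts fuse. It spanned 1.04 to 3.38 CPM (median 2.15) in DLDPL and 0.375 to 1.55 CPM (median 0.792) in DPL, a low level, and its log2 change was 1.38 ± 0.28 (adjusted p = 0.00416). MYH8, the perinatal myosin heavy chain, was at 0.71 (adjusted p = 0.094). Only uniquely mapped reads were counted, so reads shared with the near-identical myosin heavy chains may be missing from its count.

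Of 22 tested glycolysis genes 2 rose and 0 fell, against 1.98% and 2.12% of all genes. Of the 22, 17 had a positive change, and the median was 0.27. LDHA (ENSSSCG00000013366), the muscle form of lactate dehydrogenase, spanned 5021 to 8511 CPM (median 6759) in DLDPL and 2803 to 4781 CPM (median 3989) in DPL. The groups did not overlap, and the rise was 1.71-fold (log2 change 0.77 ± 0.17, adjusted p = 0.00731). GPI, which turns glucose 6-phosphate into fructose 6-phosphate, ran from 801 to 1131 CPM against 577 to 821 CPM and rose by 0.57 (adjusted p = 0.00575). Without the 3 DPL libraries of lowest coverage neither was called, with log2 changes of 0.72 for LDHA and 0.51 for GPI (adjusted p = 0.0509 and 0.0552). With the mitochondrial share as a covariate 1 of the list was called, LDHA. Limma on log2(RPKM + 1) called 8 of the list higher, on a scale where the median change of all genes was 0.09. PRKAG3, the kinase subunit whose variants affect glycogen in pig muscle, was at 0.58 (adjusted p = 0.0829).

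Genes for the entry of pyruvate into mitochondria were among the falls. Of 25 tested genes of the TCA cycle and pyruvate entry, 4 fell and 0 rose, against 2.12% and 1.98% of all genes. Of the 25, 22 had a negative change, and the median was -0.24. MPC2 (ENSSSCG00000006304), a subunit of the carrier that brings pyruvate into the mitochondrion, spanned 106 to 146 CPM (median 123) in DLDPL and 164 to 237 CPM (median 193) in DPL. No library of either group reached the other's range, and MPC2 fell by 0.66 ± 0.11 on the log2 scale, 1.58-fold (adjusted p = 0.000672). Its call held in each of the alternative fits run. PDK2 (ENSSSCG00000027198), a kinase that switches off pyruvate dehydrogenase, likewise did not overlap, with 77.2 to 113 CPM (median 92.8) in DLDPL and 125 to 181 CPM (median 159) in DPL (log2 change -0.71 ± 0.12, adjusted p = 0.00085). PDHA1, a subunit of pyruvate dehydrogenase itself, also fell (log2 change -0.56 ± 0.15, adjusted p = 0.0245), so that an enzyme and a kinase that inhibits it were both lower. GOT1, which acts in the malate-aspartate shuttle, fell by 0.82 (adjusted p = 0.0394). PDK4, the isoform induced by fasting, had a log2 change of -0.91 and did not pass the test (adjusted p = 0.0919), although all 8 DLDPL libraries were below the DPL median. Leaving out 1 library at a time gave 2 to 7 falls in the list, with 2 without DLDPL replicate 18 or 29 and 7 without DPL replicate 19. With the mitochondrial share as a covariate 1 member was called, MPC2, and the median of the list was -0.20. PDK2, PDHA1 and GOT1 lost their call in that fit.

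Of 42 tested nuclear genes of oxidative phosphorylation, 7 fell and 0 rose, against 2.12% and 1.98% of all genes. Of the 42, 38 had a negative change, and the median was -0.28. NDUFV1 (ENSSSCG00000012896), the complex I subunit that takes electrons from NADH, spanned 75.0 to 90.7 CPM (median 81.0) in DLDPL and 92.2 to 159 CPM (median 108) in DPL without overlap (log2 change -0.45 ± 0.10, adjusted p = 0.00575). NDUFB10 and NDUFA10 of complex I fell by 0.40 and 0.34 (adjusted p = 0.0111 and 0.0399). UQCRC1, a core protein of complex III, ran from 203 to 299.6 CPM in DLDPL and from 299 to 449 CPM in DPL, so the ranges touched (log2 change -0.45 ± 0.11, adjusted p = 0.0198). COX4I1 and COX5B, nuclear subunits of cytochrome c oxidase, fell by 0.56 and 0.51 (adjusted p = 0.0296 and 0.0229), and SDHA, of complex II, by 0.37 (adjusted p = 0.0403). DPL replicate 23 was the highest DPL library in NDUFV1, NDUFB10, UQCRC1, COX4I1 and COX5B.

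All 13 mitochondrially encoded genes had a negative change, with a median of -0.60, and 1 of them was called. ND1, a complex I subunit made in the mitochondrion, spanned 6593 to 17498 CPM (median 11542) in DLDPL and 13326 to 26050.4 CPM (median 18156) in DPL (log2 change -0.73 ± 0.21, adjusted p = 0.0394). With the mitochondrial share as a covariate, which is the sum of these same 13 genes, 0 of the 42 nuclear genes and 0 of the 13 were called. In that fit the median of the nuclear genes was -0.09. Leaving out the 3 DPL libraries of lowest coverage, DPL replicate 23 among them, left 2 of the 42 called, and the median was -0.28. Leaving out 1 library at a time gave 3 to 12 falls among the 42: 3 without DPL replicate 23 or DLDPL replicate 29, 4 without DLDPL replicate 18 or 27, and 12 without DPL replicate 16. Of the 13, such fits called 0 to 6, with 6 without DLDPL replicate 20.

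Fatty acid oxidation had 4 falls and 0 rises among 31 tested genes, against 2.12% and 1.98% of all genes, with a median of -0.24. HADHA (ENSSSCG00000008571), a subunit of the trifunctional protein that shortens long fatty acids, spanned 207 to 344 CPM (median 271) in DLDPL and 343 to 587 CPM (median 391) in DPL. Of the DLDPL libraries, 7 lay below every DPL library, and HADHA was 1.53-fold lower (log2 change -0.62 ± 0.12, adjusted p = 0.00319). ETFDH, which passes electrons from fatty acid oxidation to the respiratory chain, fell by 0.52 (adjusted p = 0.00418). ACADS, which oxidizes short fatty acids, fell by 0.39 (adjusted p = 0.0321), and ACSL1, which links fatty acids to coenzyme A, by 0.53 (adjusted p = 0.0439). With the mitochondrial share as a covariate 0 members of this list were called, and 2 were without DLDPL replicate 6, 18, 27 or 29 or DPL replicate 23. Of 44 mitochondrial ribosomal proteins, 3 fell, namely MRPS10, MRPL38 and MRPL4, by -0.51, -0.41 and -0.34, and 0 rose (median -0.14). MRPL4 did not overlap between the groups. Of 29 tested genes of amino acid and creatine metabolism, 1 rose and 2 fell, DBT and GOT1, with a median of -0.06. DBT, part of the enzyme complex that breaks down branched-chain amino acids in the mitochondrion, did not overlap, with 12 to 18.0 CPM in DLDPL and 19.0 to 24.8 in DPL (log2 change -0.54 ± 0.14, adjusted p = 0.0213). MCCC1, a subunit of a mitochondrial enzyme of leucine breakdown, rose by 0.49 (adjusted p = 0.0425).

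**Figure D3:**
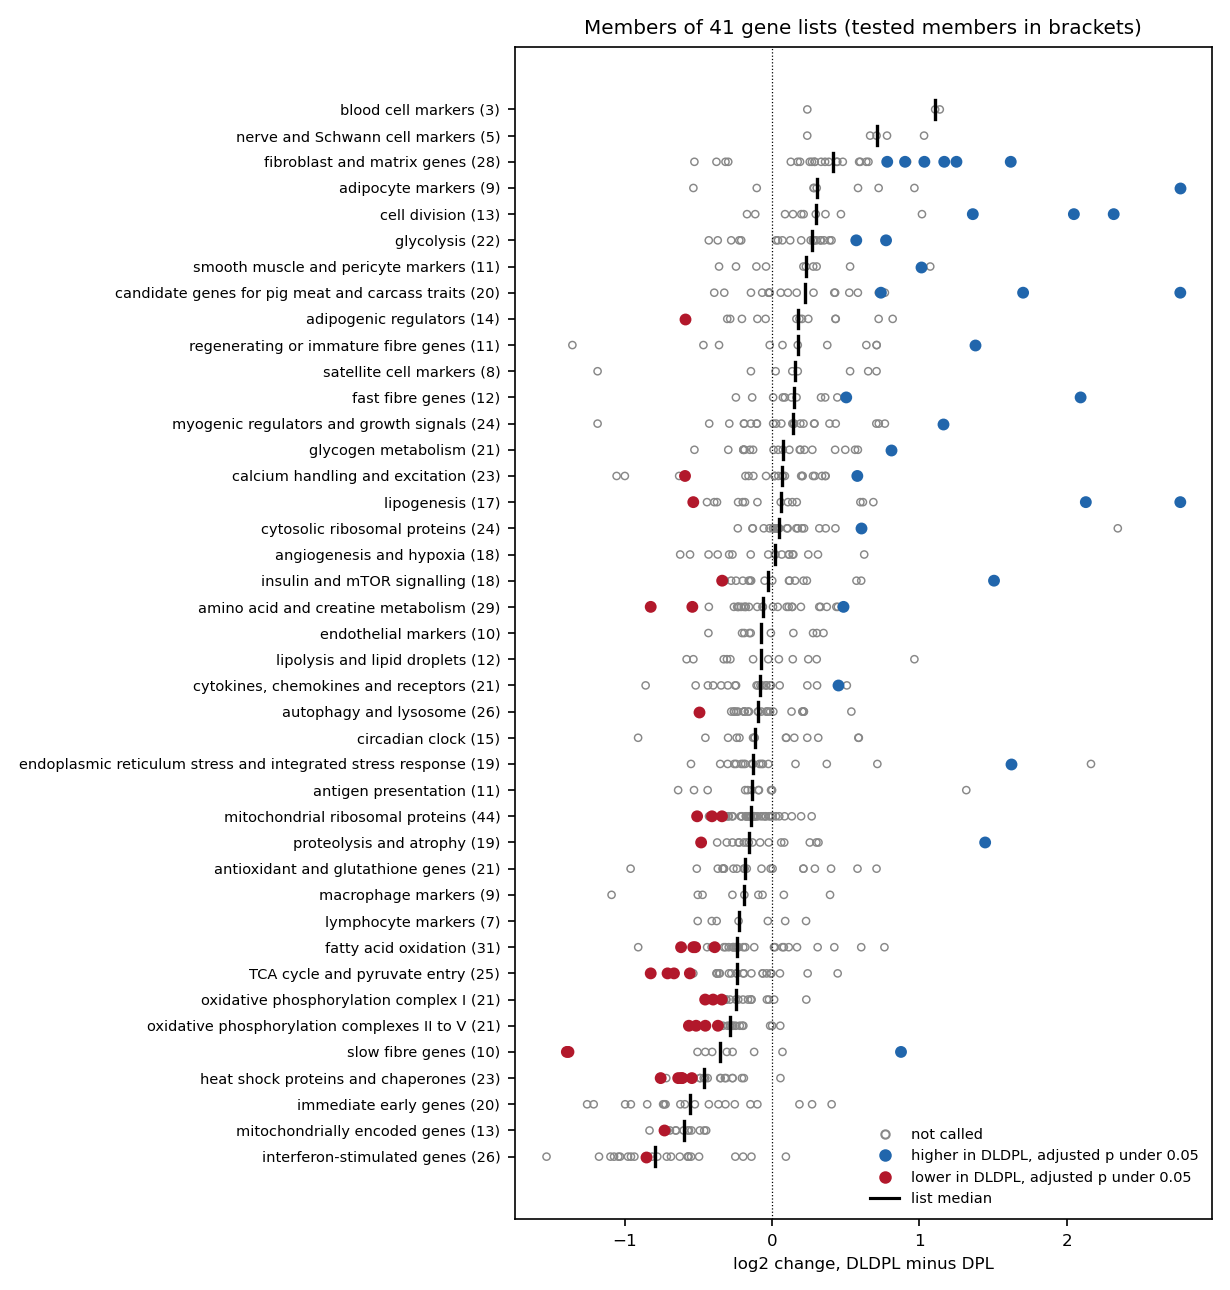
Log2 change DLDPL minus DPL of every tested member of the gene lists, 1 row per list, ordered by the list's median (black bar); filled points passed the test and open points did not. Interferon-stimulated genes, with a median of -0.79, are the lowest row, and filled points of the heat shock, oxidative phosphorylation and fatty acid oxidation rows lie left of 0.

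Chaperones, which fold proteins and increase under heat and other stress, were among the falls. Of 23 tested heat shock and chaperone genes, 5 fell and 0 rose, against 2.12% and 1.98% of all genes. Of the 23, 22 had a negative change, and the median was -0.46. HSP90AA1 (ENSSSCG00000002535), the inducible cytosolic HSP90, spanned 486 to 1371 CPM (median 996) in DLDPL and 1052 to 2288 CPM (median 1568) in DPL. All 8 DLDPL libraries were below the DPL median, 6 of them below every DPL library, and the fall was 1.69-fold (log2 change -0.75 ± 0.19, adjusted p = 0.0172). HSP90AB1, the constitutive form, spanned 599.6 to 1100.4 CPM (median 767) and 941 to 1816 CPM (median 1221) (log2 change -0.64 ± 0.15, adjusted p = 0.0097). FKBP4 and STIP1, which work with HSP90, fell by 0.61 and 0.54 (adjusted p = 0.00328 and 0.0399). HSPB8, a small heat shock protein of muscle, fell by 0.62 (adjusted p = 0.0397). DLDPL replicate 18 was the lowest DLDPL library in HSP90AA1, HSP90AB1, FKBP4 and HSPB8. Leaving out 1 library at a time gave 3 to 9 falls, with 3 without DLDPL replicate 6, 18, 20 or 25 or DPL replicate 11 or 21, and 9 without DPL replicate 19. Limma on log2(RPKM + 1) called 0 of the list, and the covariate fit left 1, HSP90AB1 (log2 change -0.76, adjusted p = 0.03). The median of the list was -0.30 on the limma scale and -0.57 in the covariate fit.

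Immediate early genes, which respond to stimulation within minutes, did not pass the test. Of 20 tested, 0 were called by edgeR's quasi-likelihood test (7 at an unadjusted p under 0.05), 1 by DESeq2 and 0 by limma, 17 had a negative change, and the median was -0.56. FOS spanned 48.9 to 805 CPM (median 382) in DLDPL and 399.9 to 1322 CPM (median 948) in DPL, with a log2 change of -1.21 ± 0.47 and an adjusted p of 0.136. ATF3, induced by many kinds of stress, was at -1.25 (adjusted p = 0.085) and NR4A3 at 0.41 (adjusted p = 0.668). The summed level of the list was 328 to 3304 CPM (median 1959.8) in DLDPL and 1702 to 4518 CPM (median 2889) in DPL. DLDPL replicate 18, the library with low chaperones, held the lowest sum. Without DLDPL replicate 28, 4 genes of the list were called lower, and 0 without any other single library.

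The calls among interferon-stimulated genes depended on 1 library. Of 26 tested, 25 had a negative change and the median was -0.79. Yet only 1 was called, with 0 rises, a share near the 4.1% of all genes that were called. DLDPL replicate 32 had a summed level of 801 CPM, whereas the other 7 DLDPL libraries lay between 133 and 163. The DPL libraries spanned 164 to 607 CPM (median 318). So 7 DLDPL libraries lay below every DPL library and 1 above them all. Without DLDPL replicate 32, 20 of the 26 were called lower and 0 higher, and the median was -1.42. The called member in the full set was IRF9. IRF9 (ENSSSCG00000002002), a subunit of the factor that carries the interferon signal to DNA, spanned 7.59 to 20.4 CPM (median 9.07) in DLDPL and 7.76 to 28.9 CPM (median 18.6) in DPL (log2 change -0.85 ± 0.23, adjusted p = 0.0288). It lost its call, leaving 0 in the list, without DLDPL replicate 6, 18, 25, 27 or 29 or DPL replicate 11, 16 or 21. IFI44L went from a log2 change of -0.98 (adjusted p = 0.0716) to -1.32 (adjusted p = 0.00785) without that library, and IRF7, which amplifies the response, from -0.86 to -1.52 (adjusted p = 0.000308). Of 11 antigen presentation genes 0 were called by edgeR, DESeq2 or limma, 2 had an unadjusted p under 0.05 and the median was -0.14. Of 21 cytokine and receptor genes 1 was called, IL6ST, the shared receptor of the interleukin 6 family, at 0.45 (adjusted p = 0.0377).

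**Figure D4:**
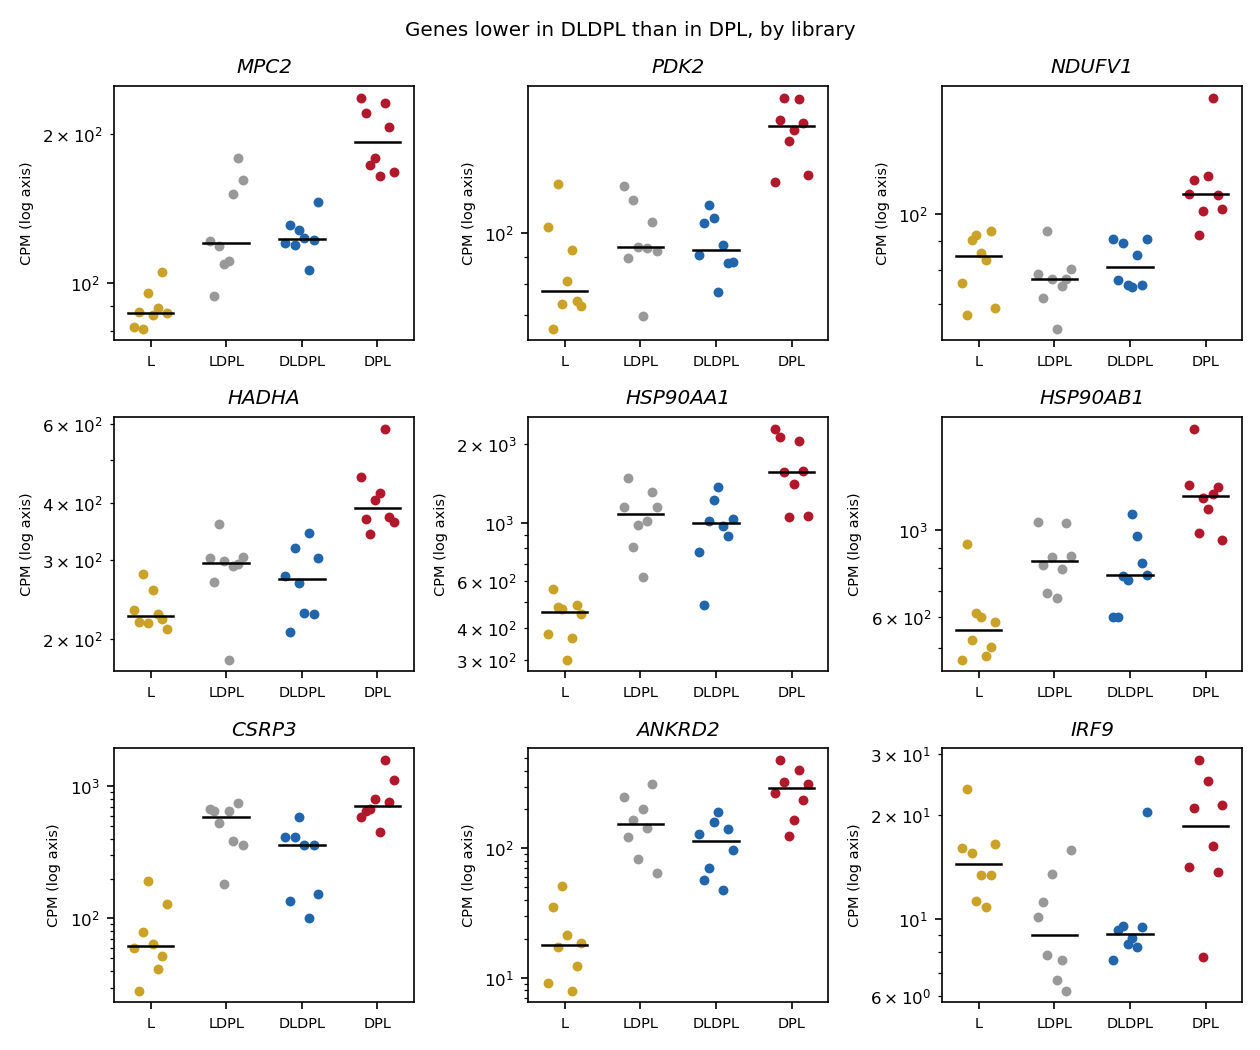
Level in each library, in CPM on a log axis, of 9 genes lower in DLDPL than in DPL, for all 4 groups; bars are medians of 8 libraries. MPC2, PDK2 and NDUFV1 do not overlap between DLDPL and DPL, and 1 DLDPL library of IRF9 lies far above the other 7.

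Fat synthesis changed in few genes, and the rises rested on few libraries. Of 17 tested lipogenic genes 2 rose and 1 fell, against 1.98% and 2.12% of all genes. SCD (ENSSSCG00000010554), the desaturase that makes oleic acid, had 8.78 to 448 CPM (median 24.8) in DLDPL and 3.72 to 26.1 CPM (median 8.09) in DPL. DLDPL replicate 29 alone was at 448 CPM. All 8 DLDPL libraries were above the DPL median, and 3 lay above every DPL library. The log2 change was 2.77 ± 0.67 (adjusted p = 0.0145), and without DLDPL replicate 29 it was 1.02 (adjusted p = 0.213). With DESeq2 it was 0.94 (adjusted p = 0.216), and limma on log2(RPKM + 1) did not call it either (adjusted p = 0.0861). FASN (ENSSSCG00000029944), fatty acid synthase, spanned 6.99 to 199 CPM (median 12) in DLDPL and 2.22 to 20.2 CPM (median 10.2) in DPL. DLDPL replicates 29 and 27, at 199 and 73.2 CPM, stood above the other 6. Its log2 change was 2.13 ± 0.55 (adjusted p = 0.0232), and without DLDPL replicate 29 it was 1.08 (adjusted p = 0.174). With the mitochondrial share as a covariate both were far from the threshold (adjusted p = 0.806 and 0.773). DLDPL replicate 29 also had the lowest mitochondrial share of the group, and its part in these values was not tested.

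Apart from SCD, none of 9 adipocyte markers was called, and the list's median was 0.30. The summed level of all 9, SCD included, was 688 to 1206 CPM (median 724) in DLDPL and 571 to 784 CPM (median 628) in DPL. The highest sum was in DLDPL replicate 29, where SCD alone was at 448 CPM. Bulk RNA mixes all cells, so this sum is no measure of the number of fat cells. PPARG, the master regulator of fat cells, was at 7.02 ± 5.82 CPM in DLDPL and 4.27 ± 1.31 in DPL (SD, n = 8), with a log2 change of 0.72 ± 0.34 (adjusted p = 0.22). CEBPA was at 0.82 (adjusted p = 0.323), and CIDEC, a protein of lipid droplets, at 0.97 (adjusted p = 0.292). NR1H3 (ENSSSCG00000013241), the liver X receptor that turns on sterol export and lipogenesis, moved the other way. It spanned 14.6 to 22.1 CPM (median 17.0) in DLDPL and 23.1 to 36.0 CPM (median 25.3) in DPL without overlap, and was 1.5-fold lower (log2 change -0.59 ± 0.12, adjusted p = 0.00328). Of 12 genes of lipolysis and lipid droplets 0 were called by edgeR's test, DESeq2 or limma, and 1 had an unadjusted p under 0.05. FABP4, ADIPOQ and LEP were not analysed here.

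**Figure D5:**
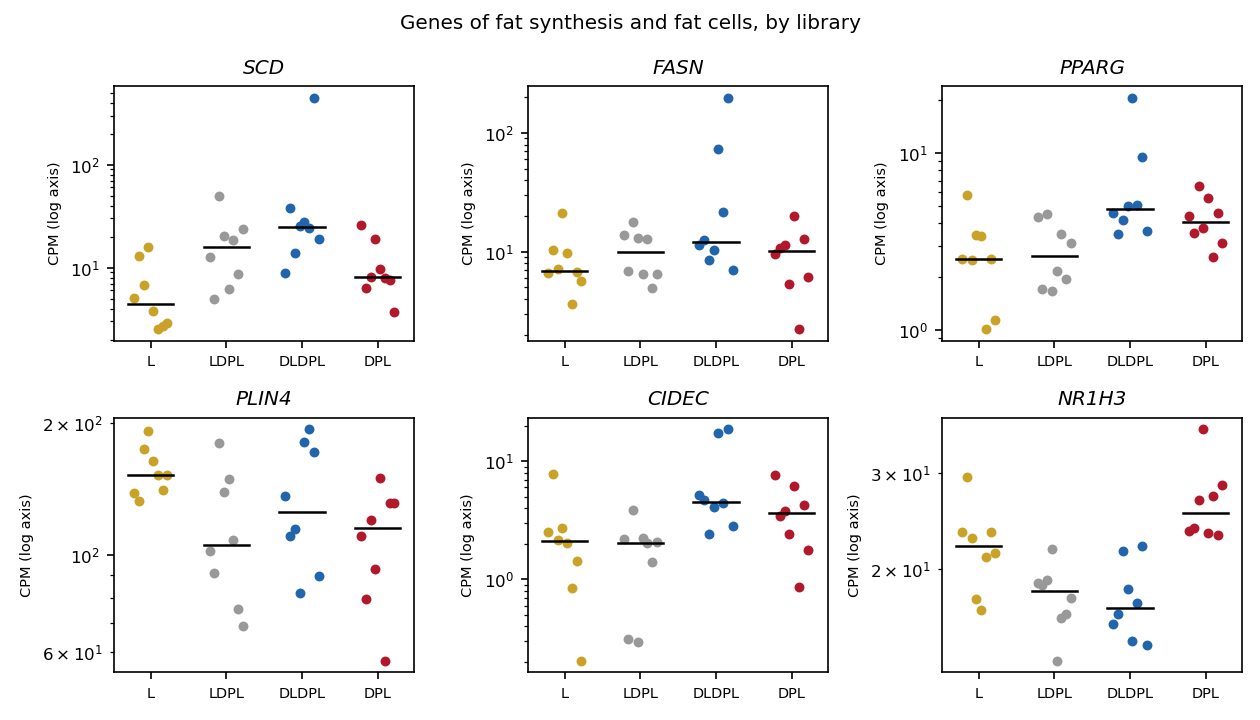
Level in each library, in CPM on a log axis, of 6 genes of fat synthesis and fat cells in the 4 groups; bars are medians of 8 libraries. One DLDPL library stands above all others in SCD (448 CPM) and FASN (199 CPM).

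Of 24 tested myogenic regulators and growth signals, IGFBP5 rose and 0 fell, a share near the 4.1% of all genes that were called. IGFBP5 (ENSSSCG00000025924), a binding protein for insulin-like growth factors, spanned 21.2 to 98.0 CPM (median 28.2) in DLDPL and 9.08 to 22.6 CPM (median 18.7) in DPL, with 7 DLDPL libraries above every DPL library (log2 change 1.16 ± 0.28, adjusted p = 0.0141). Myostatin (MSTN), a brake on muscle growth, was at 16.5 ± 9.71 CPM in DLDPL and 9.66 ± 3.41 in DPL (SD, n = 8) and did not pass the test (log2 change 0.77 ± 0.30, adjusted p = 0.135). MYOD1 was at 0.73, MYF5 at -1.18 and MYF6 at -0.43 (adjusted p = 0.14, 0.064 and 0.275). Among 18 insulin and mTOR genes, PIK3R1, a regulatory subunit of PI3 kinase, rose by 1.51 (adjusted p = 0.0328) from a DPL median of 0.872 CPM. RHEB, the activator of mTOR complex 1, fell by 0.34 (adjusted p = 0.0216).

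In protein breakdown, 1 of 19 genes rose and 1 fell, against 1.98% and 2.12% of all genes, too few to describe the list. CAPN6 (ENSSSCG00000012584), a calpain without protease activity, spanned 23.3 to 50.6 CPM (median 33.7) in DLDPL and 4.69 to 16.4 CPM (median 14.0) in DPL with no overlap. The rise was 2.73-fold (log2 change 1.45 ± 0.29, adjusted p = 0.00406). UBB, a ubiquitin gene whose repeats resemble other ubiquitin genes, fell by 0.48 (adjusted p = 0.0386). WIPI1, which acts in forming autophagosomes, was the 1 gene called among 26 of autophagy and lysosome, at -0.49 (adjusted p = 0.00455). Cell division genes had 3 rises among 13, against 1.98% of all genes. TOP2A, which untangles DNA in dividing cells, rose by 1.36 (adjusted p = 0.00496), with medians of 2.89 and 1.0 CPM. CENPF and CDC20 rose by 2.32 and 2.05 (adjusted p = 0.00328 and 0.0156) from DPL medians under 1 CPM.

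Of 20 tested candidate genes for pig meat and carcass traits, 3 rose, SCD among them, against 1.98% of all genes. KIT (ENSSSCG00000008842), a receptor known in pigs for white coat colour, spanned 0.604 to 3.19 CPM (median 2.25) in DLDPL and 0.251 to 1.35 CPM (median 0.533) in DPL, a 3.26-fold rise (log2 change 1.70 ± 0.33, adjusted p = 0.00277). Its median was 1.57 CPM in LDPL and 6.64 in L. CA3, carbonic anhydrase 3, an abundant muscle enzyme, spanned 3856 to 5726 CPM (median 5114) and 2239 to 4205 CPM (median 2789.5), and 2 DPL libraries reached the DLDPL range (log2 change 0.74 ± 0.20, adjusted p = 0.0318). Among 24 cytosolic ribosomal proteins RPL14 was called (0.60, adjusted p = 0.0444). Near-identical copies of ribosomal protein genes make it uncertain. PSAT1, an enzyme of serine synthesis on the list of stress genes, rose by 1.62 (adjusted p = 0.0313). Of 15 clock, 21 antioxidant and glutathione and 18 angiogenesis and hypoxia genes, 0 were called by edgeR's test, with 3, 7 and 1 at an unadjusted p under 0.05. DESeq2 called 0, 1 and 1 of them, each lower in DLDPL. Limma on log2(RPKM + 1) called 0, 1 and 0, and its call was higher in DLDPL.

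The other large changes of expressed genes fall outside the lists. PENK (ENSSSCG00000006243), proenkephalin, the precursor of opioid peptides, spanned 2.04 to 3.61 CPM (median 2.74) in DLDPL and 0.488 to 1.70 CPM (median 1.15) in DPL without overlap (log2 change 1.42 ± 0.29, adjusted p = 0.00424). PAQR6, a membrane progestin receptor, rose by 1.10 (adjusted p = 0.00448), and H1-3, a linker histone with close copies, by 1.19 (adjusted p = 0.00738). APOD (ENSSSCG00000011831), apolipoprotein D, a lipid carrier, was lower without overlap, at 13.8 to 45.8 CPM (median 35.7) in DLDPL and 45.9 to 164 CPM (median 72.4) in DPL, although 45.8 and 45.9 CPM are nearly equal (log2 change -1.26 ± 0.33, adjusted p = 0.0224). LPCAT3, which puts polyunsaturated fatty acids into membrane lipids, fell by 1.22 (adjusted p = 0.00474), and AP5B1, a subunit of an adaptor complex in vesicle traffic, by 1.38 (adjusted p = 0.000812). UCHL1, a deubiquitinase, PRKG1, a cGMP-dependent kinase, and ARID5A, an RNA-binding regulator, fell by 1.17, 1.05 and 1.11 (adjusted p = 0.0463, 0.0407 and 0.0395). UBD, a ubiquitin-like protein, TRNAU1AP, a factor of selenoprotein synthesis, ZDHHC9, a palmitoyltransferase, and C6orf136 fell by 1.14, 1.13, 1.17 and 0.93 (adjusted p = 0.0302, 0.009, 0.0205 and 0.00134). Over 28 alternative fits each, UCHL1 and ARID5A lost their call in 15, PRKG1 and UBD in 10, and AP5B1 and ZDHHC9 in 0.

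The cross without Duroc, LDPL, offers a comparison of whether the 3-breed cross stands apart. The test of DLDPL against LDPL called 0 of 12821 genes with edgeR (0%), with 969 at an unadjusted p under 0.05, and DESeq2 called 33. LDPL against DPL, which shares the DPL libraries, gave 366 calls, 166 higher and 200 lower. Median CPM in DLDPL, LDPL and DPL was 123, 120.5 and 193 for MPC2. For COL3A1 the medians were 651, 531 and 218, and for LDHA 6759, 6685 and 3989. The change of DLDPL against LDPL was -0.07 for MPC2, 0.45 for COL3A1, 0.07 for LDHA and 0.56 for CCDC80 (adjusted p = 0.934, 0.759, 0.966 and 0.403). For IGFBP5 the change was 1.07 (adjusted p = 0.17), with medians of 28.2 CPM in DLDPL, 17.8 in LDPL and 18.7 in DPL. These p values miss the threshold and do not show that the crosses are alike.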

How the data were processed

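The authors deposited 1 table per library. Per the file headers and column names, it gives uniquely mapped read counts, RPKM, percent coverage and length per gene. The deposited counts summed to the header total in all 32 libraries, with 0 rows without a gene, and the deposited RPKM was recomputed from counts and length within a relative deviation of 2.18e-14. The deposited percent coverage exceeded 100 in 12 values, and length differed between files for 180 of 17930 genes. Among builds and tools, the submitters' processing notes list mm8, a mouse build, Cufflinks and Bowtie 0.12.2, though the gene identifiers are pig Ensembl identifiers. No pig build is named, and no positions are printed. No strand setting is given, so reads of overlapping antisense genes cannot be told apart.

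Genes not listed in a library were set to 0. Genes were kept by filterByExpr (minimum count 10, minimum total 15), leaving 12821 (99.97% of all reads). After TMM scaling, edgeR 4.0.16 in R 4.3.3 fitted the 4 groups together by its quasi-likelihood method (common biological coefficient of variation 0.285). Genes were called at an adjusted p under 0.05. DESeq2 1.42.0, limma 3.58.1 on log2(RPKM + 1), and fits without single libraries were alternatives. The pipeline was tested on simulated data. Symbols were matched for 10836 identifiers (60.4%). No tested gene matched the symbols MYH7, MYH4, MYOG, IGF2, LEP, ADIPOQ or FABP4.

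The genes named come from a fixed panel, from each of 41 lists (up to 4 members, by smallest adjusted p), and from the 12 top called genes in each direction by log2 change, given a symbol and a higher group mean of 5 RPKM or more. A rule-named gene may be given by value alone or left out for space, and some results are not reported here. COL5A2, SPARC, STIP1, FN1, COL6A1 and DCN were named after their values were seen. The genes, lists and rule were chosen with earlier results of these data known. No 2 libraries of DLDPL or of DPL agreed within sampling noise (smallest chi-square per degree of freedom 37.2). Beyond the labels' 32 pigs, nothing states that the libraries come from separate animals. If some do not, the spread behind each p-value is that of these samples and may be technical.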

Additional observations from a re-analysis of the deposited data

Results flagged for a closer look

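In 17 of 178 groups of 8 libraries checked, 1 library stood far from the other 7 by Dixon's test on log2 CPM. Chance flags about 1 in 20 groups, and these genes were picked partly for their change. DPL replicate 23 was the far library in 6 genes. It was high in COX4I1 (9.89 on the log2 CPM scale, the others 8.61 to 9.18), ETFDH (9.05), NDUFV1 (7.31) and UQCRC1 (8.81), all of mitochondrial energy metabolism. The same library was low in IL6ST (4.37) and SMYD1 (3.16). Its coverage of long genes was the lowest of the 16 libraries, at 92.5%, and the part of that in these values was not tested.

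In DLDPL, replicate 29 was high in SCD (8.81, the others 3.15 to 5.25) and low in LPCAT3 (2.41). Replicate 32 was high in IRF9 (4.36, the others 2.94 to 3.27), as in the interferon list as a whole. DLDPL replicate 18 was low in HSPB8 (9.45), replicate 20 high in MSTN (5.31) and replicate 28 low in TOP2A (0.29).

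Among the other DPL libraries, replicate 19 was low in CAPN6 (2.25) and high in NR1H3 (5.17), replicate 21 high in LPCAT3 (6.28) and low in MSTN (1.84), and replicate 11 high in PRKG1 (6.59).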

How the results depend on the processing

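Calls for DLDPL against DPL numbered 526. They were 251 in a fit to the 2 groups alone (135 higher, 116 lower), 788 with DESeq2, 447 without the filter and 451 with limma on log2(RPKM + 1). Leaving out 1 library at a time gave 311 to 687, with over 1.5 times fewer calls without DLDPL replicate 6 (311), DPL replicate 11 (343) or DLDPL replicate 29 (344). Alternatives chosen after seeing the data gave 317 without the 3 DPL libraries of lowest coverage (228 shared with the 526) and 107 with the mitochondrial share as a covariate. For DLDPL against LDPL the count was 0, and 33 with DESeq2, 2 without the filter, 1 with limma's voom, and 0 to 3 without 1 library. Of 135 called genes with values tabled, 0 changed direction in up to 28 fits each and 17 kept their call in all, COL15A1, CCDC80, CNN1 and MPC2 among them. No paired analysis was possible because DLDPL and DPL share no replicate number in the labels. Depth limits genes under about 1 CPM, such as CDC20 and CENPF, where few reads set each value.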

Other observations

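Among further called genes are some of the matrix. They were picked after their values were seen and because they were called, so they say nothing about matrix genes as a group. CPXM1, a secreted carboxypeptidase-like protein, did not overlap between the groups, with 4.32 to 7.96 CPM (median 4.59) in DLDPL and 0.525 to 2.90 CPM (median 1.40) in DPL (log2 change 1.88 ± 0.26, adjusted p = 0.000122). COL21A1, a collagen that associates with fibrils, did not overlap either and rose by 1.13 (adjusted p = 0.000183). ADAMTS2, which trims procollagen, rose by 1.22, the basement membrane protein NID2 by 0.88, OLFML2B by 0.88 and LAMA4, a laminin chain of vessel walls, by 0.67 (adjusted p = 0.00325, 0.003, 0.00184 and 0.0268). P3H3 and P3H4, which act in collagen modification, rose by 0.60 and 0.83 (adjusted p = 0.0217 and 0.00646). Of the prolyl 4-hydroxylase subunits, which also modify collagen, P4HA1 was at -0.29 and P4HA2 at -0.56, and neither passed the test (adjusted p = 0.387 and 0.0776). NT5E, an ectonucleotidase carried by stromal cells, spanned 4.36 to 8.59 CPM (median 5.04) in DLDPL and 1.32 to 4.04 CPM (median 2.51) in DPL and rose by 1.07 (adjusted p = 0.000812). LSS, an enzyme of sterol synthesis, rose by 1.08 (adjusted p = 0.0097).

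Lower genes picked the same way include some mitochondrial ones, with the same limit. PHB2, a prohibitin of the inner membrane, spanned 52.2 to 68.7 CPM (median 57.7) in DLDPL and 72.6 to 92.1 CPM (median 82.7) in DPL without overlap (log2 change -0.50 ± 0.08, adjusted p = 0.000672). PHB1 fell by 0.38, IMMT, which shapes the cristae, by 0.40, OXA1L, which inserts inner membrane proteins, by 0.42 and the import pore TOMM40 by 0.35 (adjusted p = 0.0253, 0.0283, 0.0151 and 0.0226). COQ4 and COQ8A, of coenzyme Q synthesis, fell by 0.70 and 0.70, and ESRRA, a nuclear receptor that drives mitochondrial genes, by 0.72 (adjusted p = 0.00572, 0.00547 and 0.0108). KYAT1, an enzyme of kynurenine metabolism, fell by 0.92 (adjusted p = 0.000129) and kept its call in each fit run.

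Of all 17930 genes, 1 had reads in all 8 DPL libraries and none in the 8 DLDPL libraries. ENSSSCG00000021404, which has no symbol in the name table, had 4 to 34 reads per DPL library, 124 in all, and 0 in DLDPL. Against the limit that a count of 0 allows, 3 reads over the group, it was at least 39.4-fold lower in DLDPL, counting error only. It also had 0 reads in the 8 L libraries and 56 reads over 7 of 8 LDPL libraries. The reverse pattern held for 1 gene, ENSSSCG00000016932, with 1 to 4 reads per DLDPL library and 0 in DPL.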
